A study of Mus musculus with 12 samples.

Results

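The insulin-like growth factor (IGF) system was followed through 10 genes: the ligands Igf1 and Igf2, the receptors Igf1r and Igf2r, and the binding proteins Igfbp2 to Igfbp7. The members were taken by symbol, and each of the 10 had 1 transcript cluster among the 19938 genes tested. Of the 10, 2 differed from untreated cells after 96 h in difluoromethylornithine: Igf2r rose 4.30-fold and Igfbp7 fell 2.48-fold. As 21.9% of all genes tested were called at 96 h, 2 of 10 is close to the background share. Only 5 members lay above the floor of the arrays. With only genes of a mean log2 level of at least 5 tested, 48.6% were called at 96 h. Both ligands and the binding proteins Igfbp2, Igfbp3 and Igfbp5 lay at the floor of the arrays throughout.

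IGF1 and IGF2 act through the type 1 receptor, a tyrosine kinase that signals to growth and survival through IRS adaptors, PI3 kinase and AKT. The type 2 receptor does not signal in this way: it takes up IGF2 for destruction and, as the cation-independent mannose 6-phosphate receptor, carries newly made enzymes to the lysosome. The binding proteins hold IGFs outside the cell, and proteases that cut them free the ligand. In fibroblasts IGF1 acts as a progression factor of the cell cycle.

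The cells were NIH3T3, a long-established mouse fibroblast line, and received difluoromethylornithine (DFMO), an inhibitor of ornithine decarboxylase that depletes cells of polyamines. The groups were 3 arrays of untreated cells and 2, 3, 2 and 2 arrays of cells kept for 12, 24, 48 and 96 h in 1 mM DFMO. All 5 groups were G1 fractions obtained by sorting, grown in medium with foetal calf serum, which itself carries IGFs and binding proteins. The untreated cells belong to 0 h, so hours in culture and exposure to the drug cannot be told apart.

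The median log2 level of an array ranged from 4.13 to 4.2. Between replicates, r across genes was 0.994 to 0.998. The labels call them biological replicates without naming separate cultures, so p-values measure only the spread between these arrays. Of 13 measured fibroblast markers, 10 stood above the floor in untreated cells, taken as the range of leukocyte marker means, while Lum, Dcn and Postn did not, and at 96 h 2 of the 13 rose and 6 fell. Untreated means of 14 leukocyte markers ran from 3.36 (Ptprc) to 4.34 (Lyz2), the range where a level cannot be told from background. Summed log2 levels of the 14 markers were 51.6 to 52.2 in untreated arrays and 53.7 to 53.9 at 96 h, and 1 of them (Lyz2) rose while Ptprc stayed at the floor. Summed levels in untreated arrays and at 96 h were 44.7 to 45.3 and 43.4 for 11 epithelial markers, of which 1 rose (Cdh1) and 1 fell (Krt14). They were 31.8 to 32.1 and 32.2 to 32.3 for 9 endothelial markers (1 rose, Tek), and 40.1 to 41.0 and 40.7 to 42.5 for 11 skeletal muscle markers (1 rose, Des). For 8 adipocyte markers they were 32.7 to 33.0 and 31.8 to 32.5, with 0 called. Not all of these markers lay at the floor. Untreated means were 8.83 for Krt14 and 7.72 for Lpl, an adipocyte marker, while the list medians were 3.6 (epithelial) and 3.56 (adipocyte). The part of the marker genes in the results was not tested.

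The promoters of the 2 members that changed are shown first. Each is the 250 bases before the RefSeq start, read 5′ to 3′ on the gene's strand. Capitals mark CACGTG, the palindromic E-box, in Igf2r and GGGCGG, the GC box (on either strand), in Igfbp7. Igf2r also holds GC boxes, which are left in lower case, so the capitals show no difference in that motif.
Igf2r: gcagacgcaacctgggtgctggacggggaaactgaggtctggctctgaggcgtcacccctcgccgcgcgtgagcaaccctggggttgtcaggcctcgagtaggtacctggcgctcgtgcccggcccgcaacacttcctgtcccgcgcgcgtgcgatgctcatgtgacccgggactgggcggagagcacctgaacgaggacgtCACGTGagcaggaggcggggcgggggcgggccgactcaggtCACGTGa
Igfbp7: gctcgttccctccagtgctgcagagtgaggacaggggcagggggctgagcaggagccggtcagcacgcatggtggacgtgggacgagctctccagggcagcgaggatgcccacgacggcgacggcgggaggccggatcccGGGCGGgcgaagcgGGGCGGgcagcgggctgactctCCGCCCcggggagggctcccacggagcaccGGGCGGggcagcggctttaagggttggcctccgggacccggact
They come from RefSeq's mouse assembly GRCm38.p6, chr17:12769707-12769956 and chr5:77408046-77408295, both on the minus strand, and 10 of 10 members had such an entry. Igf2r holds 2 E-boxes, beginning 48 and 7 bases before the start, and both sit inside the 9-letter form GTCACGTGA. At least 1 CACGTG was found in 6.02% of 32851 promoter windows of this length and at least 2 in 0.429%, and GTCACGTGA on either strand in 0.621%. Igfbp7 has 0 E-boxes and 4 GC boxes, beginning 110, 96, 74 and 44 bases before the start, a motif that 32.7% of windows hold at least once. Igf2r holds 3 GC boxes, and neither gene holds a TATAAA, which 12.4% of windows have. Among the other members, Igfbp2 has 1 CACGTG in 1 of its windows. The windows of Igf2r and Igfbp7 are 69.2% and 74.0% G and C, against a median of 52.4% over all windows. The E-box was chosen for the search after the Igf2r sequence had been read, and these matches describe letters only.

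Igf2r was the member with the largest change. Its log2 levels were 5.63, 6.0 and 6.07 in the 3 untreated arrays, and 6.38 and 5.55 at 12 h. They were 5.78, 5.91 and 6.19 at 24 h, 6.85 and 6.57 at 48 h, and 7.90 and 8.10 at 96 h. The arrays of the first 3 groups overlapped, whereas both 48 h arrays lay above all of these and both 96 h arrays above the 48 h ones.

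At 96 h the mean of Igf2r was 8.0 ± 0.14 (SD, n = 2) against 5.90 ± 0.23 (SD, n = 3) in untreated cells. The log2 change was 2.10 ± 0.23 (SE), with a 95% interval of 1.58 to 2.63 and a limma adjusted p of 0.00017. Of all genes tested, 21.9% were called at 96 h, 11.8% as higher and 10.1% as lower, and the 10 members had 1 called in each direction. By size, the rise of Igf2r was number 26 among the 19938 genes. The change between 48 h and 96 h was 1.29 ± 0.26 (adjusted p = 0.0134), in a comparison that called 8.64% of genes, 4.35% as higher and 4.29% as lower, and 1 of the 10 members. That step was lost without replicate 2 of the 48 h group (1.15, adjusted p = 0.0879) or replicate 2 of the 96 h group (1.19, adjusted p = 0.0835).

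At 48 h Igf2r did not pass the test: the log2 change was 0.81 ± 0.23, with an interval of 0.29 to 1.34 and a limma adjusted p of 0.0805. The comparison called 5.82% of genes, 2.65% as higher and 3.17% as lower, and 0 of the 10 members. Between 24 h and 48 h 1.67% of genes were called, 0.527% as higher and 1.14% as lower, and again 0 members; the step of Igf2r was 0.75 ± 0.23 (adjusted p = 0.186). At 12 h and 24 h the log2 changes of Igf2r were 0.06 ± 0.23 and 0.06 ± 0.21, with intervals of -0.46 to 0.59 and -0.41 to 0.53. By limma 0 genes (0%) were called at 12 h and 0 (0%) at 24 h, with 741 and 1579 genes at an unadjusted p under 0.05.

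**Figure D1:**
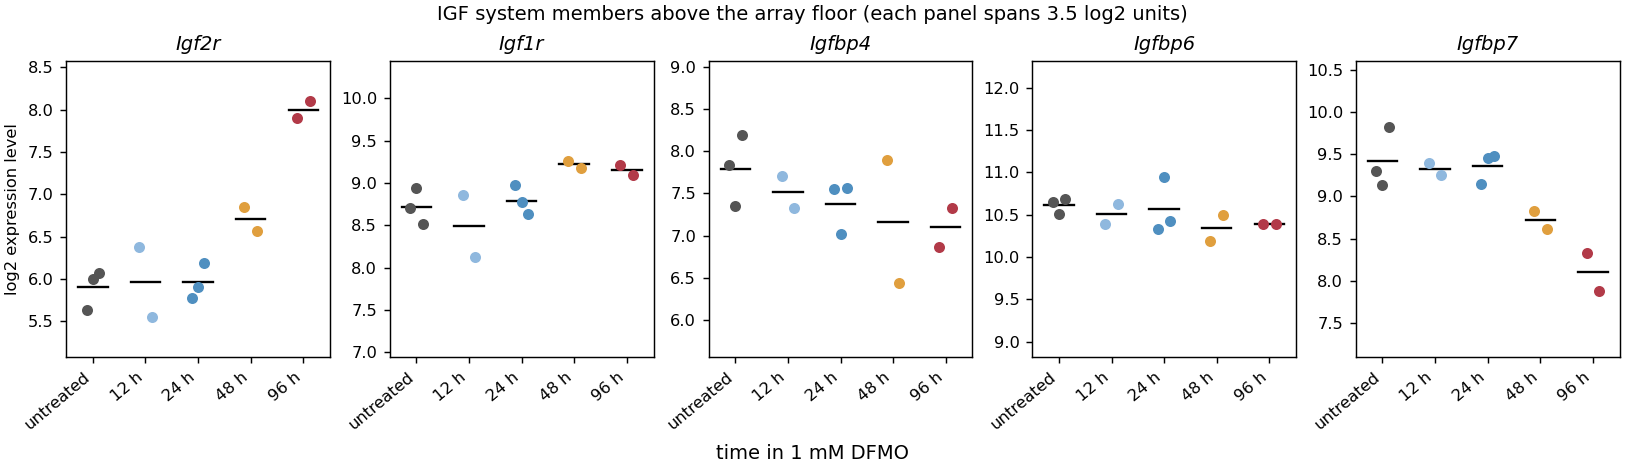
Log2 expression level (vertical axis, 3.5 log2 units in every panel) of the 5 members above the array floor, for untreated cells and for 12, 24, 48 and 96 h in 1 mM DFMO. Points are arrays and lines group means. Igf2r goes from a mean of 5.90 to 8.0 and Igfbp7 from 9.42 to 8.11, while the 48 h arrays of Igfbp4 lie far apart.

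The type 1 receptor gene Igf1r did not pass the test at any time. Its levels were 8.70, 8.94 and 8.51 in untreated cells, 8.86 and 8.12 at 12 h, and 8.97, 8.77 and 8.63 at 24 h. They reached 9.26 and 9.18 in the 48 h arrays and 9.21 and 9.09 in the 96 h arrays. All arrays at 48 h and 96 h lay above those at the earlier times, and the first 3 groups overlapped. The log2 change was 0.51 ± 0.20 at 48 h (95% interval 0.06 to 0.96, limma adjusted p = 0.195). At 96 h it was 0.43 ± 0.20 (interval -0.02 to 0.88, adjusted p = 0.189), so a rise of up to 0.88 log2 units is within the error.

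Igfbp7, a secreted protein of the family that binds IGFs weakly, fell. Its levels were 9.30, 9.13 and 9.82 in untreated cells and 9.40 and 9.25 at 12 h. At 24 h they were 9.15, 9.45 and 9.48, at 48 h 8.83 and 8.62, and at 96 h 8.33 and 7.88. The first 3 groups overlapped, both 48 h arrays lay below every one of their arrays, and both 96 h arrays lay lower still.

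At 96 h the mean of Igfbp7 was 8.11 ± 0.32 (SD, n = 2) against 9.42 ± 0.36 (SD, n = 3), a fall by 1.31 ± 0.21 (SE) on the log2 scale (95% interval -1.77 to -0.84, limma adjusted p = 0.0014). At 48 h the log2 change was -0.69 ± 0.21 (interval -1.16 to -0.23, adjusted p = 0.0903), which did not pass. The step from 48 h to 96 h was -0.62 ± 0.23 and did not pass either (adjusted p = 0.144). In limma's F test of all 4 times together, which called 17.0% of genes, Igf2r (adjusted p = 0.000974) and Igfbp7 (adjusted p = 0.0068) were the 2 members called. Without replicate 2 of the 96 h group the Igfbp7 call in the F test was lost (adjusted p = 0.0582), and the one at 96 h held (-1.08, adjusted p = 0.019).

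Igfbp4, a binding protein that mostly restrains IGF action until it is cut by the protease PAPP-A, was the least even member between replicates. Its levels were 7.84, 7.35 and 8.19 in untreated cells, 7.71 and 7.33 at 12 h, and 7.55, 7.02 and 7.57 at 24 h. They were 7.89 and 6.44 at 48 h, and 6.87 and 7.33 at 96 h. The 48 h arrays, 1 near the untreated ones and 1 below all others, had an SD of 1.03 (n = 2), and both 96 h arrays lay below the lowest untreated array. The log2 change at 96 h was -0.69 ± 0.40, with an interval of -1.59 to 0.21 and a limma adjusted p of 0.309. At 48 h it was -0.63 ± 0.40 (adjusted p = 0.429), and without replicate 2 of that group it was 0.10.

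Igfbp6, which prefers IGF2 over IGF1, varied little. Untreated arrays had 10.65, 10.51 and 10.69, those at 12 h 10.39 and 10.63, and those at 24 h 10.33, 10.94 and 10.43. At 48 h the levels were 10.19 and 10.49, and at 96 h both arrays stood at 10.39. The arrays at 48 h and 96 h lay below the untreated ones, and all of them fell within the range of the 24 h arrays except the lower 48 h one. Its log2 change at 96 h was -0.23 ± 0.17 (interval -0.60 to 0.15, limma adjusted p = 0.469).

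**Figure D2:**
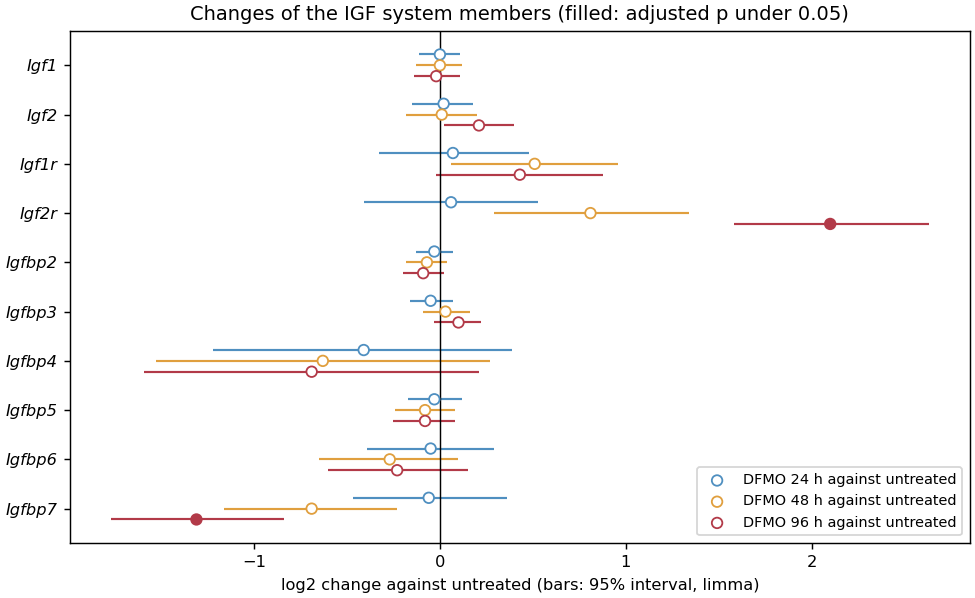
Log2 change against untreated cells (horizontal axis) of the 10 members (vertical axis) at 24, 48 and 96 h, with 95% intervals from limma. Filled points are called at an adjusted p under 0.05: Igf2r (2.10) and Igfbp7 (-1.31), both at 96 h. The widest intervals are those of Igfbp4.

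The other 5 members stayed at the floor, with all 60 values between 3.29 and 3.86. Their 20 log2 changes against untreated cells were at most 0.21 in size. At this level the array cannot tell little transcript from none, and a change would be compressed. Igf1, which encodes the ligand of the type 1 receptor, had 3.80, 3.82 and 3.75 in untreated cells and 3.80 and 3.75 at 96 h, where the groups overlapped.

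Igf2, which encodes the ligand that both receptors bind, had 3.52, 3.49 and 3.52 in untreated cells, 3.48 and 3.6 at 12 h, 3.43, 3.48 and 3.67 at 24 h, 3.52 in both arrays at 48 h, and 3.61 and 3.83 at 96 h. Both 96 h arrays lay above the untreated ones, and the log2 change of 0.21 ± 0.08 did not pass (limma adjusted p = 0.115). With eBayes fitted with trend and robust settings it passed, at the same size (adjusted p = 0.0436). Igfbp2, Igfbp3 and Igfbp5, which bind both ligands, ranged from 3.29 to 3.48, 3.33 to 3.57 and 3.54 to 3.82. Their log2 changes at 96 h were -0.09, 0.10 and -0.08, none of which passed. The Igfbp3 change passed only without replicate 1 of the 96 h group (0.19, adjusted p = 0.0436), where it rested on 1 array at 3.57.

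**Figure D3:**
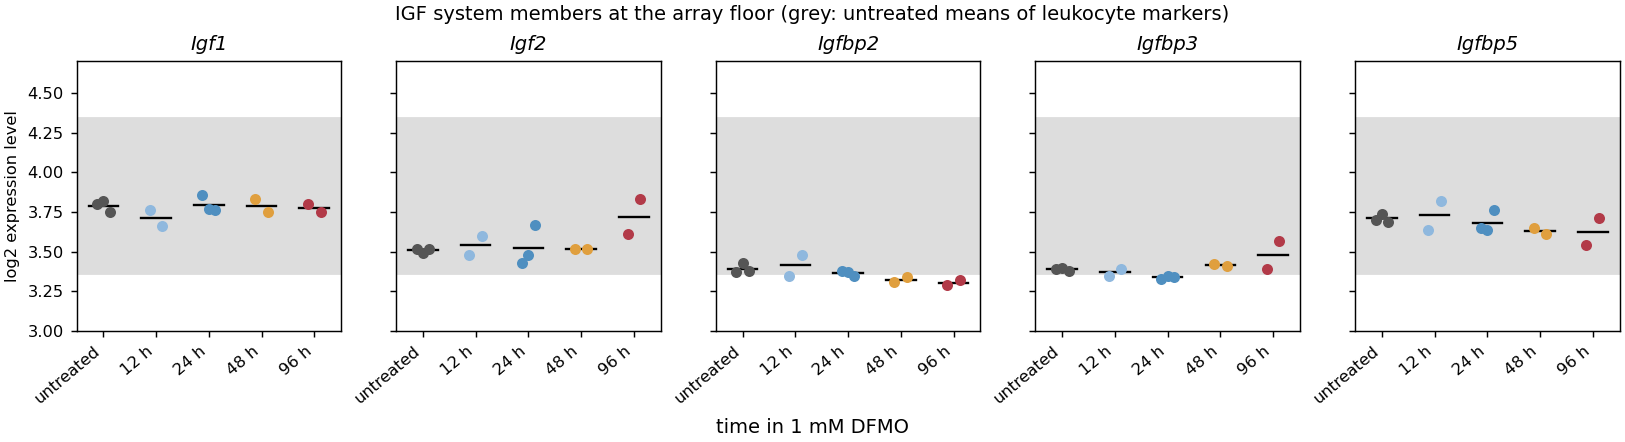
Log2 expression level (vertical axis) of the 5 members at the array floor by time in 1 mM DFMO. Points are arrays, lines group means, and the grey band spans the untreated means of 14 leukocyte markers (3.36 to 4.34). All 60 values lie between 3.29 and 3.86.

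The order of the groups differed between the members above the floor. For Igf2r it ran from 96 h (8.0) through 48 h (6.71) to 12 h (5.96), 24 h (5.96) and untreated cells (5.90), and the last 3 overlapped. For Igfbp7 it was untreated (9.42), 24 h (9.36), 12 h (9.32), 48 h (8.72) and 96 h (8.11), with the first 3 overlapping. Neighbouring groups of Igfbp4 overlapped at every step of its order.

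Of 19937 other genes, those whose 12 array values correlated most with Igf2r were Slc7a2, a cationic amino acid transporter (r = 0.98), Rbm22, a splicing factor (r = 0.98), and Zeb2, a zinc finger repressor (r = 0.978). Their log2 changes at 96 h were 1.91, 0.86 and 1.55. For Igfbp7 they were Vsig10 (r = 0.972), Adgra3, an adhesion receptor (r = 0.967), and Pdp2, a pyruvate dehydrogenase phosphatase (r = 0.965), with changes of -0.64, -1.15 and -0.68. The 12 points share arrays and the 96 h difference, so these values only describe likeness of pattern.

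The proteins that act on IGFs outside the cell were read from a list of 14, all measured, of which 3 rose and 2 fell at 96 h, with a median log2 change of 0.00 (all genes 0.00). Over all genes 21.9% were called at 96 h, and 48.6% of those with a mean log2 level of at least 5. With only genes of that level tested, 5 of the list remained, 2 higher and 1 lower. Pappa encodes PAPP-A, the protease that cleaves IGFBP4 and so releases IGF. Its levels were 4.30, 4.46 and 4.57 in untreated cells, 4.99 and 4.0 at 12 h, and 3.94, 4.10 and 4.47 at 24 h. They were 5.75 and 4.74 in the 48 h arrays and 6.44 and 5.85 in the 96 h arrays. Both 96 h arrays lay above all others, and the log2 change was 1.70 ± 0.35 (3.25-fold, limma adjusted p = 0.00615). The untreated arrays stood at or near the floor, so the size of this rise is uncertain. Without replicate 1 of the 96 h group the Pappa call was lost, with a log2 change of 1.41.

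Ctsd, which encodes cathepsin D, a lysosomal protease that the type 2 receptor sorts, had 10.84, 10.77 and 11.03 in untreated cells and 12.14 and 12.10 at 96 h. It rose by 1.24 ± 0.13 (2.36-fold, adjusted p = 0.00011). Prss23, a serine protease named after its values were seen, was the third gene to rise, by 0.69 ± 0.14 (adjusted p = 0.00494), a call lost without replicate 1 of the 96 h group (0.59, adjusted p = 0.0557).

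Htra3, a serine protease, fell (adjusted p = 0.000452), from 4.53, 4.43 and 4.76 to 3.77 and 3.96. The 96 h values are at the floor, so the size of the fall was not measured. Plau, urokinase, fell by 0.79 ± 0.18 (adjusted p = 0.0121), a call lost without either 96 h array (adjusted p = 0.0895 and 0.0505). The remaining binding protein gene, Igfbp1, and the binding partner Igfals, both named after their values were seen, lay at the floor, with log2 changes at 96 h of 0.05 and -0.13. Without replicate 1 of the 96 h group, fewer genes were called in the list and over all genes.

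In the signalling list, 35 of 39 genes were measured, and 13 rose and 4 fell at 96 h, with a median log2 change of 0.08. Over all genes 21.9% were called at 96 h and 5.82% at 48 h. With only genes of a mean log2 level of at least 5 tested, 48.6% of them were called at 96 h. In that setting 32 genes of the list remained, 13 higher and 5 lower. Whether the list differs from these shares was not tested. At 48 h 1 rose and 3 fell. Without single untreated arrays 0 rose and 1 to 2 fell, while 3.22% to 4.6% of all genes were called. With only the arrays compared 5 rose, and 5.71% of all genes were called. At 96 h, without single untreated arrays, the 13 became 10 to 11 and the 4 became 2 to 4, while 18.3% to 20.1% of all genes were called. Leaving out a 48 h or 96 h array leaves 1 in that group. Fewer genes were then called at that time, in the list and over all genes. Pik3r3, a regulatory subunit of PI3 kinase, rose by 2.08 ± 0.16 (4.24-fold, limma adjusted p = 2.05e-05), from 5.87, 5.77 and 5.53 to 7.97 and 7.65, beyond every other array. The catalytic subunit gene Pik3cb fell by 1.21 ± 0.12 (2.31-fold, adjusted p = 0.000106), from 9.25, 9.46 and 9.47 to 8.26 and 8.11.

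Further down the same pathway, Foxo3, a transcription factor that AKT keeps out of the nucleus, rose by 1.09 ± 0.10 (2.13-fold, adjusted p = 4.82e-05). Gsk3b, a kinase that AKT inhibits, rose by 0.94 ± 0.11 (1.92-fold, adjusted p = 0.000239). Both had all 96 h arrays above all untreated ones. The other genes of this list named here were chosen after their values were seen. The rest of those that rose were Gab1, Sos2, Pik3r2, Pdpk1, Akt2, Tsc1, Tsc2, Mtor, Rptor and Rictor, with log2 changes of 0.34 (Akt2) to 0.95 (Tsc1). Of these, Mtor lost its call without any 1 of the 5 arrays compared (adjusted p = 0.0507 to 0.126), and Gab1 without any but replicate 2 of the 96 h group (0.0539 to 0.269), with all clusters tested (0.0524) and with the trend and robust settings (0.0566). Without replicate 1 of the 96 h group Rptor (0.115), Pik3r2 (0.0637) and Tsc2 (0.0543) were lost. Without replicate 2 of that group Rptor (0.0563), Pik3r2 (0.0639) and Akt2 (0.0705) were, and without untreated replicate 3 Rptor was (0.0503). Irs1, an adaptor of the type 1 receptor, had a log2 change of -0.56 (adjusted p = 0.0311), Inppl1 one of -0.44 (adjusted p = 0.0239) and Foxo4 one of -0.47 (adjusted p = 0.0281). None of these 3 calls held without replicate 2 of the 96 h group, where Irs1 stood at -0.68 (adjusted p = 0.0541), Inppl1 at -0.24 (0.223) and Foxo4 at -0.37 (0.207). Irs1 was also lost without replicate 1 of that group (0.226), without untreated replicate 1 or 2 (0.0966 and 0.0958) and with only the arrays compared (0.0921). Inppl1 was lost without untreated replicate 2 or 3 (0.0768 and 0.0607) and with only the arrays compared (0.0667). Foxo4 was lost without untreated replicate 1 or 3 (0.0844 and 0.0724), without replicate 1 of the 96 h group (0.0535) and with the replicate block (-0.43, 0.0667). Insr, the insulin receptor, did not pass (0.15, interval -0.14 to 0.45).

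**Figure D4:**
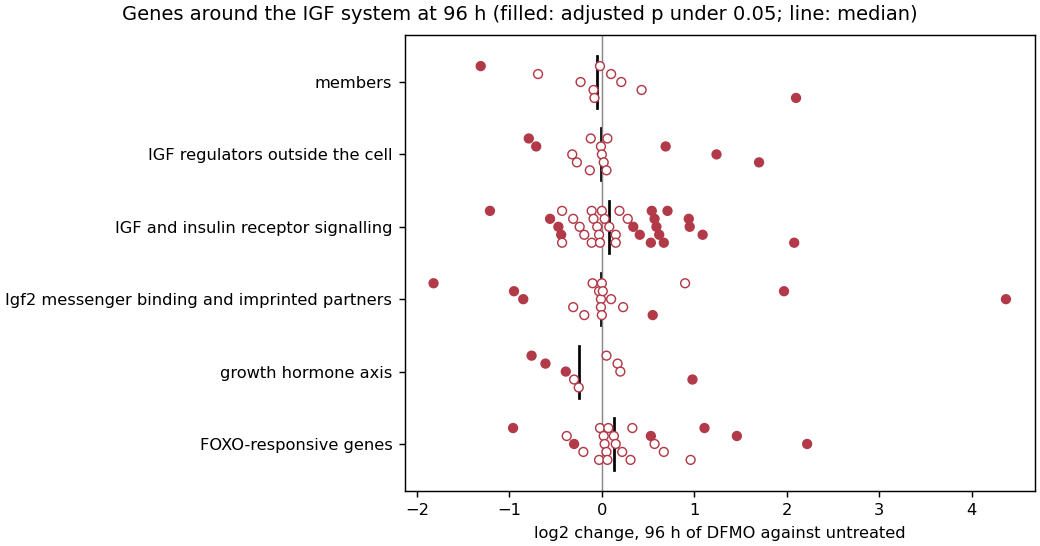
Log2 change at 96 h of DFMO against untreated cells (horizontal axis) for the 10 members and the measured genes of 5 lists around the IGF system (vertical axis). Each point is a gene, filled where the limma adjusted p was under 0.05, and black lines are medians. The signalling list has 13 filled points above 0 and 4 below. Of all genes tested, 21.9% were called at 96 h.

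A list of proteins that bind the Igf2 messenger and of imprinted and related genes had 18 of 22 measured, of which 3 rose and 3 fell at 96 h, with a median log2 change of -0.01. The share called over all genes was 21.9%, and 48.6% among genes with a mean log2 level of at least 5. With only genes of that level tested, 9 of the list remained, 3 higher and 3 lower. Igf2bp3 encodes a protein that binds and aids translation of the Igf2 messenger. Its levels were 8.16, 8.38 and 8.60 in untreated cells, 7.97 and 8.15 at 48 h, and 7.38 and 7.47 at 96 h, a fall by 0.95 ± 0.13 (limma adjusted p = 0.000593). Igf2bp1, of the same family and named after its values were seen, fell by 0.85 ± 0.19 (adjusted p = 0.00919), from 7.82, 7.84 and 7.99 to 7.07 and 6.99. That call was lost without replicate 2 of the 96 h group (-0.81, adjusted p = 0.0678). Igf2 itself was at the floor in the same arrays.

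Airn is the non-coding transcript that silences the paternal copy of Igf2r, and its gene overlaps Igf2r on the opposite strand. Its levels were 4.67, 4.68 and 4.32 in untreated cells, 4.75 and 4.62 at 12 h, and 5.04, 4.16 and 4.88 at 24 h. They were 5.54 and 5.31 in the 48 h arrays and 5.83 and 7.22 in the 96 h arrays. The arrays at 48 h and 96 h lay above all earlier ones, and the log2 change at 96 h was 1.97 ± 0.37 (3.92-fold, adjusted p = 0.0038). The untreated arrays stood at or near the floor and the 96 h arrays had an SD of 0.98 (n = 2). The size of the rise is therefore uncertain. Where the probes of either cluster lie, and whether they tell the strands apart, is not stated in what was used here, so signal in the overlap cannot be assigned to 1 gene.

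Slc38a4, an amino acid transporter, fell by 1.82 ± 0.09 (3.53-fold, adjusted p = 1.14e-06), from 10.29, 10.27 and 10.48 to 8.61 and 8.44. Dcn, which encodes decorin, a matrix proteoglycan that binds the type 1 receptor, rose (adjusted p = 1.05e-05) from levels of 3.59 to 3.83 to 7.57 and 8.60 at 96 h. The untreated values are at the floor, so the fold was not measured. Plagl1, named after its values were seen, was the third gene of this list to rise, by 0.55 ± 0.14 (adjusted p = 0.0191), which was lost without replicate 1 of the 96 h group (0.46, adjusted p = 0.15) or untreated replicate 3 (0.44, adjusted p = 0.051).

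Of the 9 genes of the growth hormone axis, which drives Igf1 in liver, 1 rose and 3 fell at 96 h, with a median log2 change of -0.25. The share called over all genes was 21.9%, and 48.6% among genes with a mean log2 level of at least 5. With only genes of that level tested, 7 of the axis remained, 1 higher and 3 lower. Ghr, the growth hormone receptor, had 8.87, 8.80 and 8.68 in untreated cells, 9.11 and 9.52 at 48 h, and 9.69 and 9.83 at 96 h, and rose by 0.98 ± 0.12 (limma adjusted p = 0.000389). Jak2, the kinase it uses, fell by 0.76 ± 0.10 (adjusted p = 0.000469), and Stat5b, the factor that kinase activates, by 0.39 ± 0.07 (adjusted p = 0.00426). Ptpn2, a phosphatase of the pathway, fell by 0.61 ± 0.12 (adjusted p = 0.00487), a call lost without replicate 1 of the 96 h group (-0.55, adjusted p = 0.0507). All 96 h arrays of these 4 genes lay outside the untreated range.

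The list of 23 FOXO-responsive genes, which IGF signalling tends to hold down, had 4 higher and 2 lower at 96 h, with a median of 0.13. The share called over all genes was 21.9%, and 48.6% among genes with a mean log2 level of at least 5. With only genes of that level tested, 15 of the list remained, 5 higher and 1 lower. The 4 became 7 with the replicate block, and 6 with array weights or without untreated replicate 3. Over all genes these settings called 24.0%, 24.1% and 20.1% at 96 h. Txnip, the thioredoxin-interacting protein, was higher by 2.22 ± 0.21 (4.67-fold, limma adjusted p = 6.37e-05), and Tsc22d3, a leucine zipper protein also called GILZ, by 1.11 ± 0.10 (adjusted p = 4.82e-05). Rictor, a subunit of the second mTOR complex, was higher by 0.53 ± 0.08 (adjusted p = 0.00115). It is also on the signalling list, so the counts of both lists include it. Sesn1, a stress-induced inhibitor of mTOR signalling, fell by 0.96 ± 0.13 (adjusted p = 0.000637). Irs2 and Insr, on this list and the signalling list and named after their values were seen, had log2 changes at 96 h of -0.02 and 0.15 and did not pass.

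Because the type 2 receptor is also a lysosomal sorting receptor, 10 genes of mannose 6-phosphate sorting were read as well, chosen after the values of Igf2r were seen. Of the 9 measured, 3 rose and 0 fell at 96 h, with a median log2 change of 0.34. The share called over all genes was 21.9%, and 48.6% among genes with a mean log2 level of at least 5. Gnptg encodes a subunit of the enzyme that puts the sorting tag on lysosomal proteins. Its levels were 6.33, 6.24 and 6.50 in untreated cells, 6.93 and 7.36 at 48 h, and 7.94 and 8.29 at 96 h, and it rose by 1.76 ± 0.15 (3.4-fold, limma adjusted p = 3.49e-05). Gnptab, which encodes the catalytic part of that enzyme, had a log2 change of -0.36 ± 0.14 (adjusted p = 0.104). The other 2 that rose were Gga3, a sorting adaptor (0.63, adjusted p = 0.0212), and Vps26a of the retromer complex (0.46, adjusted p = 0.0129), and both calls were lost without either 96 h array. The Gga3 call was also lost without untreated replicate 1 (limma adjusted p = 0.0645) or untreated replicate 3 (0.0526).

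**Figure D5:**
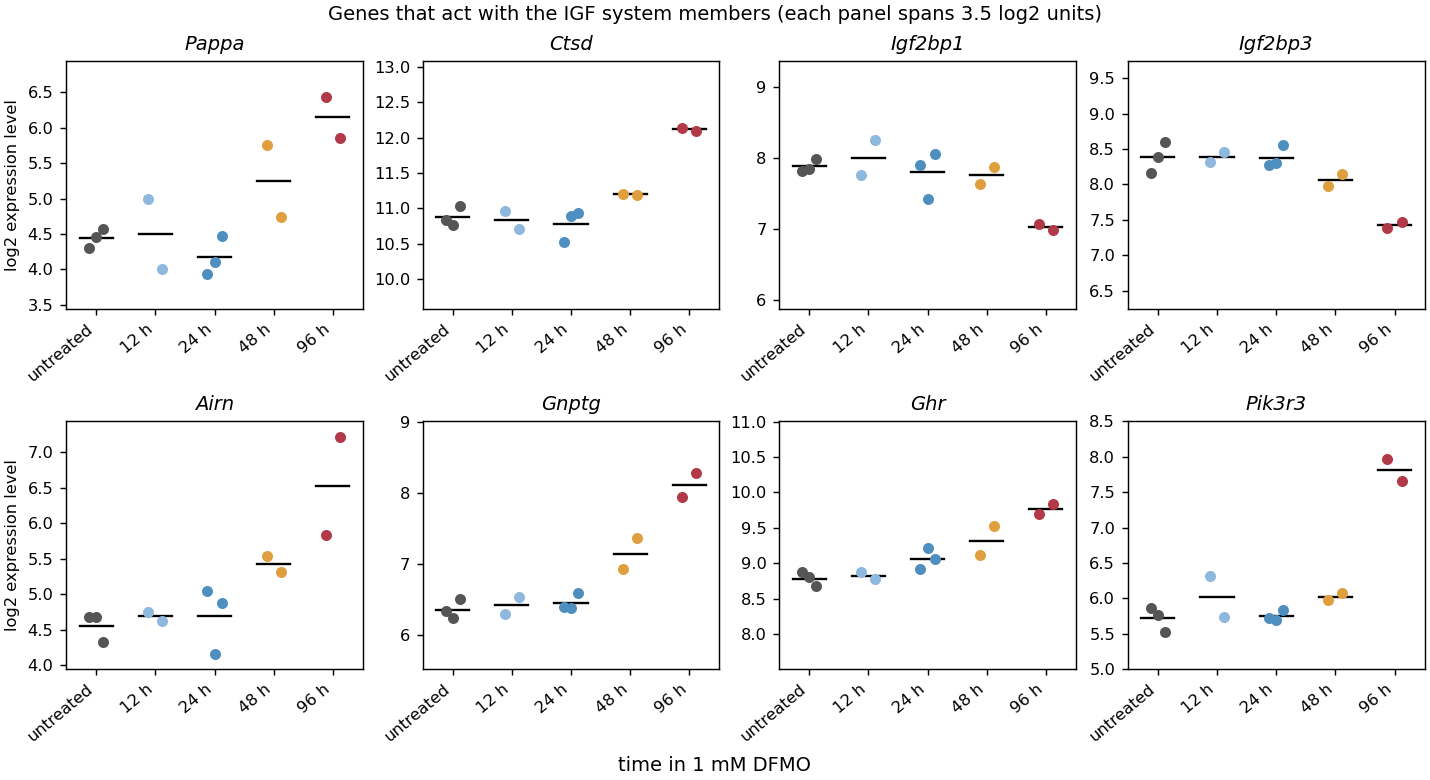
Log2 expression level (vertical axis, 3.5 log2 units in every panel) of 8 genes that act with the IGF system, by time in 1 mM DFMO. Points are arrays and lines group means. At 96 h both arrays of Igf2bp1 and Igf2bp3 lie below all others, and those of the other 6 genes above all others.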

How the data were processed

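Log2 expression values of transcript clusters were deposited by the authors in a single table. Per the submitters' processing notes RMA and Partek were used (versions not stated there). As RMA quantile-normalises, a shift shared by most transcripts would not be seen, and low values keep background. In bulk RNA, fewer cells of a type and less RNA per cell cannot be told apart. No genome build of the array was used.

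Of 35399 clusters, the 21789 with 1 symbol in the platform annotation gave 19938 genes, with the cluster of highest mean kept per gene. All genes and all 12 arrays entered a linear model of the 5 group means in limma 3.58.1 in R 4.3.3, with Benjamini-Hochberg adjustment over all genes and calls at an adjusted p under 0.05. It was checked on simulated data. Levels of different clusters were compared only with the range of leukocyte markers, as a rough floor, which ignores differences between probes. Motifs were searched on both strands with Python 3.11.15. The members and gene lists were chosen with earlier results of these data known. Named were all members, from each list the 4 genes ranked first by the F test, and the 3 genes most correlated with each member that the F test called; other genes of the lists were named after their values were seen. Some genes of the lists were not analysed here, and list counts are over the measured ones.

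Deviations from the group mean of same-number replicates of the untreated and 24 h groups had r of 0.153, 0.287 and 0.581 across genes. Of the different-number pairs, untreated replicate 1 with 24 h replicate 2 had 0.235. Untreated replicate 2 with 24 h replicate 1 had 0.126, and the rest were below 0. The numbers were therefore not shown to pair the arrays. Other comparisons share 2 numbers, too few for this check.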

Additional observations from a re-analysis of the deposited data

Results flagged for a closer look

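The change of Igf2r against untreated cells differed between 48 h and 96 h. It was 0.81 at 48 h and 2.10 at 96 h on the log2 scale, and limma's test of the difference itself gave 1.29 ± 0.26 (adjusted p = 0.0134), with both 96 h arrays above both 48 h arrays. It did not pass without replicate 2 of the 48 h group (adjusted p = 0.0879) or replicate 2 of the 96 h group (adjusted p = 0.0835). The same untreated arrays enter both changes.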

How the results depend on the processing

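The 3 called changes of the members (Igf2r at 96 h and between 48 h and 96 h, Igfbp7 at 96 h) kept their direction under every alternative tried, and 27 of the 57 that were not called changed sign under at least 1. At 96 h Igf2r ranged from 1.97 to 2.21 and Igfbp7 from -1.53 to -1.08 when single arrays were left out, and both stayed called. At 48 h, where 0 members were called, 2 (Igf2r and Igfbp7) were called with array weights, 2 with genes of a mean log2 level of at least 5, 2 with eBayes fitted with trend and robust settings, and 1 (Igf2r) with only the arrays compared; the cause was not tested. Leaving out single arrays gave 0 to 1 called members for 96 h against 48 h and 1 to 3 for the F test. With the replicate block the members called were 0 at 48 h and 2 at 96 h, and it changed no call of a member. Over all genes the block called 7.73% at 48 h and 24.0% at 96 h. In the lists the block raised the FOXO-responsive genes higher at 96 h from 4 to 7 and the signalling genes lower from 4 to 5. It lost the Foxo4 call at 96 h (adjusted p = 0.0667) and at 48 h (0.0638). Of the sorting genes it gained Gga1 (0.0119) and Vps35 (0.0315) at 96 h. At 48 h it gained Gsk3b (0.0329), Jak2 (0.0412) and Prss23 (0.0118). Over all genes, the 1160 calls at 48 h became 2194 with array weights and 375 to 918 without single arrays. The 0 at 24 h became 11 with all clusters tested. The 333 between 24 h and 48 h became 217 with all clusters tested, 521 with array weights, 61 with only the arrays compared and 67 to 257 without single arrays. The 1723 between 48 h and 96 h became 748 to 1060 without single arrays, and the 3395 of the F test fell to 2023 without 96 h replicate 1. Groups of 2 arrays limit the precision, and the floor hides small amounts of the 5 lowest members.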
